A study of Mus musculus with 8 samples.

Results

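The Schlafen and Ly6 genes described here are 9 mouse genes chosen by name, namely Slfn1, Slfn2, Slfn3, Slfn5, Slfn8, Ly6a, Ly6c1, Ly6c2 and Ly6e, of 29924 gene names on the array. Ly6c2 had no probe under its name or its RefSeq transcripts and was not measured. The other 8 had 11 probes between them, and all 8 were among the 15764 genes tested, that is, genes with a probe above background in 1 or more of the cell types, on each of its arrays. A gene is represented by its brightest probe, and the other probes of Slfn5, Slfn8 and Ly6c1 are given beside it.

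The samples were B220-CD4+ cells sorted from peripheral lymph nodes (pLN) of B6.Cg-Foxp3<tm1Mal> mice, in which GFP marks Foxp3 expressing cells, aged 8 to 14 weeks, at d12 or d25 after s.c. immunization with KLH in alum. The cell types were naïve CD4 T cells (GFP-PD1loGL7-), TFH cells (GFP-PD1hiGL7+), Treg cells (GFP+PD1loGL7-) and TFR cells (GFP+PD1hi, GL7+ or GL7-), so that only the TFH gate required GL7. Each array received 25 ng RNA of 1 pool of 8 to 15 mice of mixed sex, and each cell type had 1 array at d12 and 1 at d25, which gives 8 arrays in all. Every mouse was immunized, and the progenitor populations therefore came from immunized nodes as well. The 2 arrays of a cell type served as its replicates, and day was a term of the fit, so that a change between the days shared by all cell types is removed and any other is part of the spread. Values are normalized intensities in relative units (RU) with a floor of 20, and differences are on the log2 scale with their SE from limma, tested with Benjamini-Hochberg adjustment over all genes tested and called at an adjusted p below 0.05. All d12 arrays lay on slide 1, naïve and TFH cells of d25 on slide 2, and Treg and TFR cells of d25 on slide 3. Day and slide therefore cannot be told apart, and both TFR versus TFH and Treg versus naïve cells crossed slides at d25.

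The labels held in these arrays. Foxp3 was between 37266 and 49262 RU in Treg and TFR cells and between 65.5 and 358 RU in the GFP- populations. From 18261 to 19867 of 39429 probes were well above background per array, and no probe was saturated on any array. Since the arrays measured bulk RNA, fewer cells expressing a gene and less RNA per cell cannot be told apart.

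Schlafen proteins are a rodent-expanded family named for a role in holding lymphocytes at rest, and several are induced by type I interferon. The short forms Slfn1 and Slfn2 share the core domain, Slfn3 carries an additional middle region, and the long forms Slfn5 and Slfn8 end in a helicase-like domain. Slfn2 is needed to keep naïve T cells quiescent, and family members bind or cleave tRNA. Ly6 proteins are small cell surface proteins held by a GPI anchor. Ly6a is Sca-1, a marker of stem cells and activated T cells, Ly6c1 and Ly6c2 encode the Ly6C antigen of monocytes and T cell subsets, and Ly6e is known from thymocytes and as a restriction factor for viral entry. Both families are classic interferon targets, and resting lymphocytes of the lymph node express several members.

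The Schlafen genes lie side by side on chromosome 11, within 82951349 to 83286726 of GRCm38.p6, and Ly6e, Ly6a, Ly6c1 and Ly6c2 lie on chromosome 15, within 74955025 to 75112066. RefSeq promoter windows of 250 bases before to 50 bases after a transcription start were given for 7 of the 9 genes, but not for Ly6a and Ly6e. They were searched on either strand for the core letters of the interferon-stimulated response element (ISRE, the letters GAAA, any 2 bases and GAAA again), which interferon-activated factors bind. The ISRE core was present in the windows of Slfn5 and Slfn8, that is in 2 of 7 genes, against 3.99% of the 27025 genes of the table and 3.44% of all 32851 windows. In Slfn8 and in its neighbour Slfn9 the ISRE core was read from the opposite strand and had the same letters, 39 to 48 and 36 to 45 bases before the start (127 to 136 bases before the other RefSeq start of Slfn8). The stretches just upstream of the start are printed 5′ to 3′ along each gene with the ISRE core in capitals, for Slfn8 at chr11:83020811-83020910 (minus strand), for Slfn9 at chr11:82991831-82991930 (minus strand) and for Slfn5 at chr11:82951942-82952101 (plus strand), all in GRCm38.p6, since these are the windows that matched.
Slfn8: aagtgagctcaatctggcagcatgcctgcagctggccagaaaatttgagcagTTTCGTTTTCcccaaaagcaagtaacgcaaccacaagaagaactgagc
Slfn9: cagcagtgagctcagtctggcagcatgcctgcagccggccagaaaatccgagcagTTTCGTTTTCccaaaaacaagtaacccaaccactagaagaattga
Slfn5: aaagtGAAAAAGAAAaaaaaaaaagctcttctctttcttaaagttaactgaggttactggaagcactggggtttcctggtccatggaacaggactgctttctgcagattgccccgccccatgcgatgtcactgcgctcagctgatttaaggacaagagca

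The windows of Slfn1, Slfn2 and Slfn3 did not hold the ISRE core but shared the run ACTTCCTGG, which contains the TTCC letters that ETS factors bind. It was noticed on reading the windows and was then counted, on either strand, in 0.84% of all windows and in 1.0% of the genes. Slfn4, listed at the floor of 20 RU on every array, had the run too. A match describes letters only and says nothing of binding. The last 100 bases before the start are given with this run in capitals, for Slfn1 at chr11:83116720-83116819, for Slfn2 at chr11:83065012-83065111 and for Slfn3 at chr11:83191230-83191329, all on the plus strand of GRCm38.p6.
Slfn1: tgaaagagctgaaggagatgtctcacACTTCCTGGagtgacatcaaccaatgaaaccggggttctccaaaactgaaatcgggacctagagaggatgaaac
Slfn2: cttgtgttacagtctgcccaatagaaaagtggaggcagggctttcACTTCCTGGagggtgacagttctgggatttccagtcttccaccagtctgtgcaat
Slfn3: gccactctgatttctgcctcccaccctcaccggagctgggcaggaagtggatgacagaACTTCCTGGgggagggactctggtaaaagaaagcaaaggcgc

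**Figure D1:**
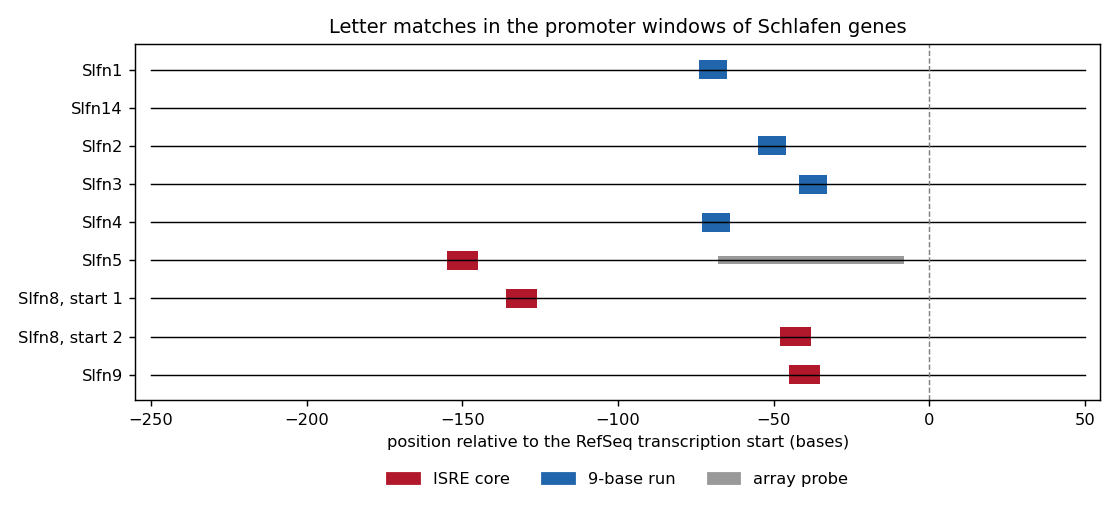
Letter matches in the RefSeq promoter windows of Schlafen genes, with the position relative to the transcription start in bases on the x axis and 1 line per window. Red bars mark the ISRE core, blue bars the 9-base run, and the grey bar the brighter Slfn5 array probe, which lies 9 to 68 bases before the start.

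The short Schlafen gene Slfn1 was low in both follicular populations. At d12 and d25, in this order throughout, it was at 2124 and 2173 RU for naïve, 522 and 404 RU for TFH, 2009 and 1707 RU for Treg and 419 and 344 RU for TFR cells. The 4 follicular arrays were all below the 4 progenitor arrays. The difference was -2.23 ± 0.12 for TFH versus naïve cells (adjusted p = 0.00037), a 4.68-fold lower level, and -2.29 ± 0.12 for TFR versus Treg cells (adjusted p = 0.000739), a 4.88-fold lower level. The difference between the lineages, (TFR versus Treg) minus (TFH versus naïve), was -0.06 ± 0.17 with a 95% interval of -0.51 to 0.39 (adjusted p = 0.87). TFR and TFH cells differed by -0.27 ± 0.12 (adjusted p = 0.179) and Treg and naïve cells by -0.21 ± 0.12 (adjusted p = 0.342). Both falls of Slfn1 were called under all alternatives of processing that were run.

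Slfn2, the other short form, was present at high intensity everywhere and varied little. It was at 70053 and 69228 RU for naïve, 59302 and 53326 RU for TFH, 69683 and 76899.6 RU for Treg and 45092 and 50069 RU for TFR cells. The 2 TFR arrays were the lowest, and the naïve and Treg arrays overlapped. The level in TFR cells fell by 0.62 ± 0.11 against Treg cells (adjusted p = 0.0129). The value for TFH versus naïve cells was -0.31 ± 0.11 (adjusted p = 0.0763). It was called without quantile normalization (-0.46, adjusted p = 0.0377), with normexp background correction (adjusted p = 0.0492) and with an intensity trend (adjusted p = 0.0297). The difference between the lineages was -0.32 ± 0.16 (adjusted p = 0.294).

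Slfn3, the intermediate form, was lowest in TFH cells. It was at 194 and 186 RU for naïve, 82.4 and 43.8 RU for TFH, 165 and 166 RU for Treg and 282 and 117 RU for TFR cells, and the d25 TFH array was not well above background. The TFH arrays were below all others, and the TFR arrays lay on either side of the naïve and Treg arrays. Slfn3 was 3.16-fold lower in TFH than in naïve cells (adjusted p = 0.0182) and 3.02-fold higher in TFR than in TFH cells (adjusted p = 0.038), with 1 of 2 TFH arrays well above background. The folds hold for the background correction used, since with normexp the log2 differences were -0.66 and 0.66. The call in TFR versus TFH cells was lost in 12 of 19 alternatives, with slide as a block among them (adjusted p = 0.135), and that in TFH versus naïve cells in 4 of 19. TFR and Treg cells differed by 0.13 ± 0.36 with an interval of -0.80 to 1.06, and the sign was opposite at d12 (0.77) and d25 (-0.51).

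The long form Slfn8 was low in TFH cells and intermediate in TFR cells. Its levels were 6358 and 7023 RU for naïve, 909.7 and 1662 RU for TFH, 6548 and 7021 RU for Treg and 3673 and 4989.9 RU for TFR cells. The TFH arrays were the lowest, the TFR arrays lay between them and the progenitors, and naïve and Treg cells overlapped. In TFH versus naïve cells Slfn8 fell by 2.44 ± 0.21 (adjusted p = 0.00121), a 5.43-fold lower level, which was called under all alternatives run. The difference between TFR and Treg cells was -0.66 ± 0.21 (adjusted p = 0.0609), near the threshold. It was called with normexp (adjusted p = 0.0331), without spot exclusion (adjusted p = 0.0498) and with an intensity trend (adjusted p = 0.0347). The same held with only genes well above background on all arrays (adjusted p = 0.0478). TFR cells were above TFH cells by 1.80 ± 0.21 (adjusted p = 0.00675), by 2.01 within slide 1. The falls in the lineages differed by 1.78 ± 0.30 (adjusted p = 0.0333), a call that was lost with slide as a block (adjusted p = 0.0729). Slide cannot move this value, since each follicular population shared its slides with its progenitor.

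The second Slfn8 probe was between 20 and 56.8 RU and not well above background on any array. The brighter probe shared a run of 19 bases with the dimmer of the 2 probes of Slfn9, beginning at its base 17, and a run of 16 bases with a probe of Psme2b. It was the only 1 of the 11 probes with a run of 16 bases or more in common with another of the 39429 probes, and transcripts of these genes may not be separated fully. The first 30 of its 60 bases, which include part of the stretch shared with Slfn9, are printed for this reason (chr11:82815804-82815863, build NCBI37, the whole probe).
Slfn8 probe: gaaggacataaataattcccttaaagaaat
The Slfn9 probe with the shared run was at 197 and 132 RU for naïve, 120.4 and 53.3 RU for TFH, 242 and 147 RU for Treg and 83.5 and 80.1 RU for TFR cells. It fell by 1.01 ± 0.27 in TFH versus naïve cells (adjusted p = 0.0335 over all probes) and fell by 1.21 ± 0.27 in TFR versus Treg cells (adjusted p = 0.024), and differed by 0.03 ± 0.27 between TFR and TFH cells (adjusted p = 0.95). The Psme2b probe with the shared run was at 923 and 1325 RU for naïve, 308 and 288 RU for TFH, 1373 and 1237 RU for Treg and 282 and 395 RU for TFR cells. It fell by 1.89 ± 0.22 in TFH versus naïve cells (adjusted p = 0.00283) and fell by 1.97 ± 0.22 in TFR versus Treg cells (adjusted p = 0.00386), and differed by 0.16 ± 0.22 between TFR and TFH cells (adjusted p = 0.638). It was the dimmest of 3 Psme2b probes. The brightest, at 117827 and 114699 RU in naïve cells, rose by 0.43 ± 0.10 in TFH versus naïve cells (adjusted p = 0.0214) and by 0.52 ± 0.10 in TFR versus Treg cells (adjusted p = 0.0157). The next brightest differed by 0.08 ± 0.10 (adjusted p = 0.509) and 0.25 ± 0.10 (adjusted p = 0.0962). Both probes with a shared run were low in TFH cells, as Slfn8 was, and in TFR cells to a like level, and their part in the Slfn8 values was not tested.

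Slfn5, the other long form, stayed within a narrow range, at 830.2 and 789 RU for naïve, 661 and 608 RU for TFH, 761 and 691 RU for Treg and 777 and 694 RU for TFR cells. Both TFH arrays were below all others, and Treg and TFR cells overlapped. The fall in TFH versus naïve cells was 0.35 ± 0.08 on the log2 scale (adjusted p = 0.0209), and TFR versus Treg cells differed by 0.02 ± 0.08 with an interval of -0.19 to 0.22. This probe lies 9 to 68 bases before the RefSeq start used for the promoter window (chr11:82952034-82952093 of GRCm38.p6), within the stretch printed for Slfn5. The RefSeq span of Slfn5 begins earlier, at 82951349, so that the probe and the printed stretch lie within the annotated gene. The second Slfn5 probe, assigned to a RefSeq transcript of the gene, was between 20 and 33.2 RU and not well above background on any array. The Slfn5 values therefore rest on the brighter probe, and the call in TFH cells was lost in 10 of 20 alternatives.

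**Figure D2:**
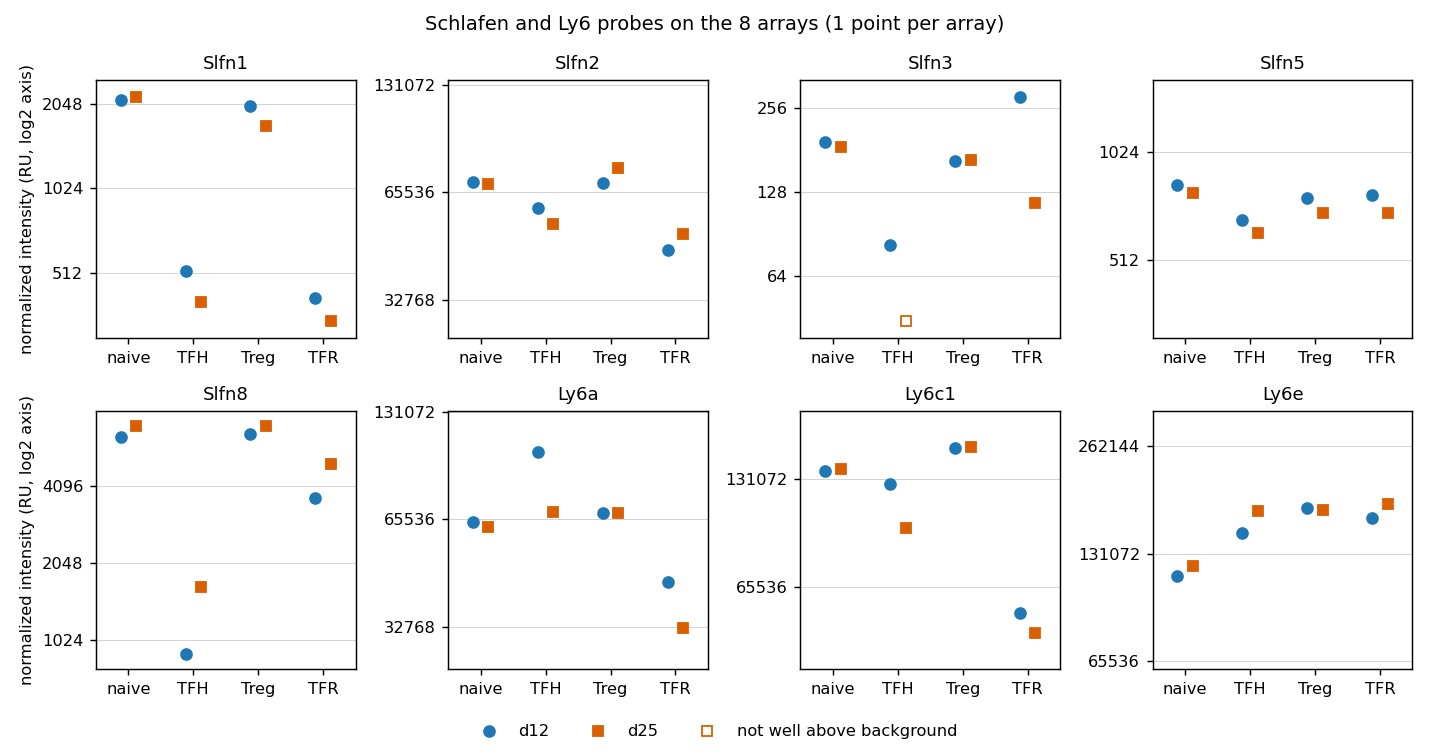
Normalized intensity (RU, log2 axis) of the brightest probe of 8 genes on each of the 8 arrays, with the cell types on the x axis, circles for d12 and squares for d25. The Slfn1 points of TFH and TFR cells sit between 344 and 522 RU, below all naïve and Treg points, and the open square of Slfn3 marks the array that was not well above background.

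Ly6a, encoding Sca-1, was lowest in TFR cells. It was at 64356 and 62248 RU in naïve cells, 100963 and 68824 RU in TFH cells, 68036 RU in Treg cells on both days, and 43745 and 32601 RU in TFR cells. The TFR arrays did not overlap with any other, and the TFH arrays were above all others, the d12 array by far. Without quantile normalization the d25 TFH array was at 60653.5 RU, below all naïve and Treg arrays (63806 to 72369 RU), so that its place rests on the normalization. The fall in TFR versus Treg cells was 0.85 ± 0.17 (adjusted p = 0.0179) and in TFR versus TFH cells 1.14 ± 0.17 (adjusted p = 0.0129), or 1.21 within slide 1. TFH and naïve cells differed by 0.40 ± 0.17 (adjusted p = 0.116), by 0.65 at d12 and 0.14 at d25. The difference between the lineages, -1.25 ± 0.24 (adjusted p = 0.0463), was near the threshold. With slide as a block the adjusted p was 0.0652 for TFR versus TFH cells and 0.1 for the difference between the lineages, whose value slide cannot move.

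Ly6c1 was read by 2 probes that disagreed in TFH cells, and they are printed by their first 30 bases so that they can be told apart. The brighter one is annotated at chr15:74875495-74875554 and the second one at chr15:74877785-74877844, in build NCBI37 of the array files.
Ly6c1, brighter probe: tattatagtatcaccatccacacataagta
Ly6c1, second probe: agcagttacctgccgcgcctctgatggatt
Ly6c1 and Ly6c2 encode closely related proteins, and with no Ly6c2 probe their contributions cannot be told apart in either probe.

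The brighter Ly6c1 probe was at 137750.0 and 140024 RU for naïve, 127024 and 95791 RU for TFH, 159865 and 161213 RU for Treg and 55231 and 48593 RU for TFR cells. The TFR arrays were the lowest and the TFH arrays the next lowest. The fall in TFR versus Treg cells was 1.63 ± 0.14 (adjusted p = 0.00195), and was called under all alternatives run. TFH versus naïve cells differed by -0.33 ± 0.14 (adjusted p = 0.104), which was -0.64 (adjusted p = 0.0368) without quantile normalization, -0.51 (adjusted p = 0.0423) without the d12 TFH array, and called with an intensity trend (adjusted p = 0.0493). TFR versus TFH cells differed by -1.09 ± 0.14 (adjusted p = 0.00799). The difference between the lineages was -1.30 ± 0.19 (adjusted p = 0.0247), and its adjusted p was 0.0633 with slide as a block, which cannot move the value.

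The second Ly6c1 probe was at 38101 and 36885 RU for naïve, 1491 and 3525 RU for TFH, 43528 and 47756 RU for Treg and 1473 and 1902 RU for TFR cells, and was well above background on all 8 arrays. Here the TFH and TFR arrays overlapped, and all 4 follicular arrays were below all 4 progenitor arrays. The difference was -4.03 ± 0.33 for TFH versus naïve cells (adjusted p = 0.000981), a 16.4-fold lower level, and -4.77 ± 0.33 for TFR versus Treg cells (adjusted p = 0.00124), a 27.2-fold lower level. TFR and TFH cells differed by -0.45 ± 0.33 (adjusted p = 0.371), and the difference between the lineages was -0.74 ± 0.46 (adjusted p = 0.391). The fall of Ly6c1 in TFR cells thus appeared with both probes, whereas its level in TFH cells depended on the probe, and the cause was not tested.

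**Figure D3:**
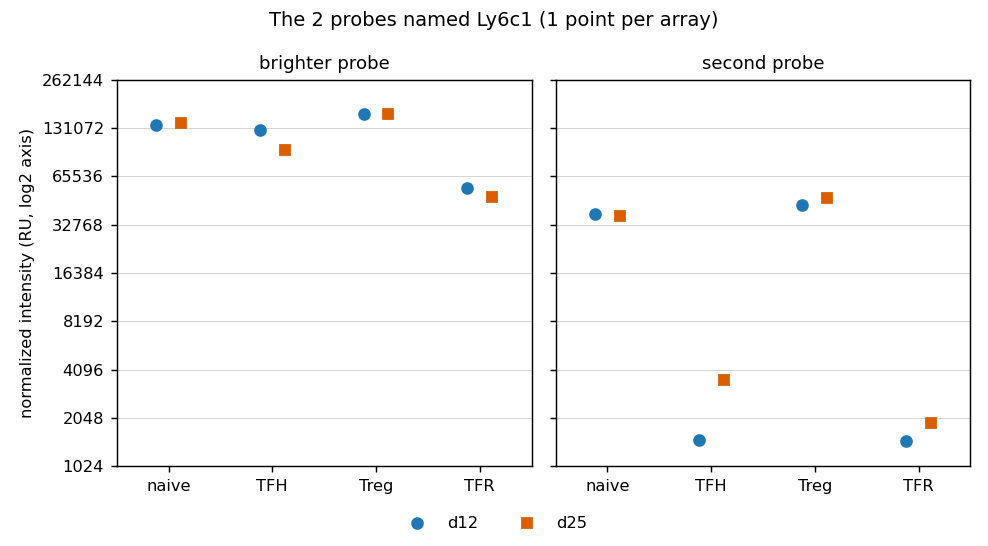
Normalized intensity (RU, log2 axis shared by both panels) of the 2 Ly6c1 probes on each of the 8 arrays by cell type, with circles for d12 and squares for d25. Both probes were low in TFR cells, but in TFH cells the brighter probe was at 95791 to 127024 RU and the second one at 1491 to 3525 RU.

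The lowest Ly6e levels were those of naïve cells. It was at 113769 and 121159 RU for naïve, 149771 and 172263 RU for TFH, 176423 and 174028 RU for Treg and 165004 and 180793 RU for TFR cells. Both naïve arrays were below all others, and the other 3 cell types overlapped. Ly6e rose in TFH versus naïve cells by 0.45 ± 0.09 (adjusted p = 0.0155) and was higher in Treg than in naïve cells by 0.58 ± 0.09 (adjusted p = 0.026). TFR and Treg cells differed by -0.02 ± 0.09 with an interval of -0.26 to 0.22. Without quantile normalization the difference of TFH and naïve cells was 0.10 (adjusted p = 0.447), so that this call rests on the normalization. With slide as a block the adjusted p of Treg versus naïve cells was 0.106.

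The order of the mean levels can be summarized over both days. For Slfn1 it was naïve, Treg, TFH and TFR, for Slfn2 and Ly6c1 Treg, naïve, TFH and TFR, and for Slfn8 Treg, naïve, TFR and TFH. Slfn3 and Slfn5 ran from naïve over TFR and Treg to TFH cells, Ly6a from TFH over Treg and naïve to TFR cells, and Ly6e from Treg over TFR and TFH to naïve cells. Without quantile normalization only Slfn1, Slfn5 and Ly6e kept their order. Treg and naïve cells, which were neighbours in the order of Slfn1, Slfn2, Slfn8, Ly6a and Ly6c1, differed in none of these 5 beyond the threshold. Treg versus TFH and TFR versus naïve cells were not among the contrasts.

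Counted over the 8 genes, 5 passed the test in TFH versus naïve cells, namely 4 Schlafen genes that fell (Slfn1, Slfn3, Slfn5 and Slfn8) and Ly6e, which rose, while 46.5% of all genes tested were called in this contrast. The median of the 5 Schlafen genes was -1.66 beside -0.07 over all genes tested, with 20.9% of all genes called higher and 25.6% lower. In TFR versus Treg cells 4 of 8 fell (Slfn1, Slfn2, Ly6a and Ly6c1), where 39.6% of all genes were called, 18.7% higher and 20.9% lower. The median of the 3 Ly6 genes was -0.85 beside -0.08 over all genes. In TFR versus TFH cells 4 of 8 were called, beside 22.1% of all genes, with Slfn3 and Slfn8 higher and Ly6a and Ly6c1 lower (11.6% and 10.5% of all genes), and without either TFR array 0 of these 4 were called. In Treg versus naïve cells Ly6e alone was called, where 9.88% of all genes were (5.89% higher and 3.98% lower). The lineages differed for 3 of 8 (Slfn8, Ly6a and Ly6c1), beside 8.49% of all genes (4.03% above 0 and 4.46% below). Between d25 and d12 limma called 0 of 8, with the smallest adjusted p at 0.171 (Slfn8), where 0.0698% of all genes were called (0.019% higher and 0.0507% lower). Most of these calls lay in contrasts that changed a large share of all genes, and the counts rested on single arrays, with 2 genes called in TFH versus naïve cells without the d25 array of either and 3 without the d12 naïve array, 2 in TFR versus Treg cells without any 1 of their arrays, and 0 in Treg versus naïve cells and between the lineages without any 1 of the naïve, Treg or TFR arrays. The counts over all genes moved as well when 1 array was left out, from 7332 to between 4309 and 6478 in TFH versus naïve, from 6249 to between 2494 and 6731 in TFR versus Treg, from 3486 to between 942 and 2915 in TFR versus TFH, from 1557 to between 416 and 1865 in Treg versus naïve cells and from 1339 to between 292 and 1096 between the lineages. Of the 17 calls, 4 held under all alternatives run for them, those of Slfn1 in both lineages, Slfn8 in TFH and Ly6c1 in TFR cells.

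**Figure D4:**
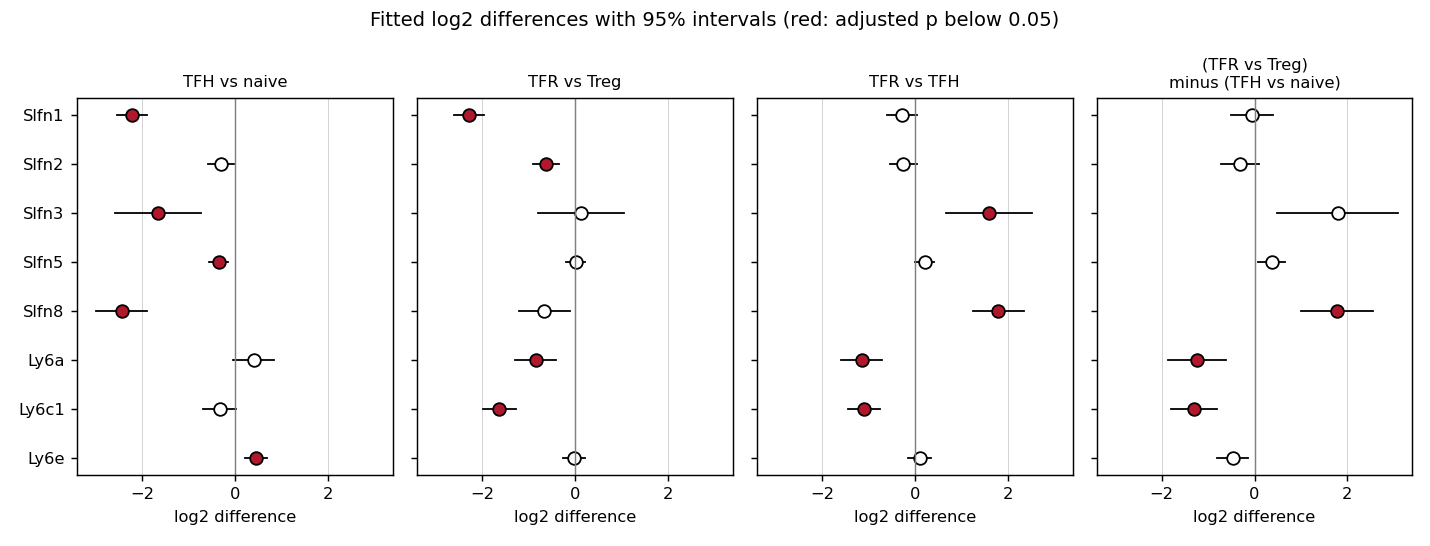
Fitted log2 differences of the 8 genes with 95% intervals in 4 contrasts, each gene on its own line, with filled points for an adjusted p below 0.05. Slfn1 lies near -2.2 in both left panels, and Slfn8 falls to -2.44 in TFH cells. Ly6a and Ly6c1, the latter by its brighter probe, are lower in TFR than in TFH cells.

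Of 5 other Schlafen names on the array, Slfn4, Slfn14 and Slfnl1 were listed at 20 RU on every array and were not tested. The pseudogene Slfn10-ps was at 3190.1 and 4278 RU for naïve, 1427 and 1803 RU for TFH, 3881 and 4226 RU for Treg and 3054 and 3879 RU for TFR cells. Its TFH arrays were the lowest, as for Slfn8, and it fell by 1.20 ± 0.11 in TFH versus naïve cells (adjusted p = 0.00124) with TFR cells above TFH cells by 1.10 ± 0.11 (adjusted p = 0.00389). By its brighter probe, which has no run of 16 bases or more in common with the Slfn8 probe, Slfn9 fell in TFR versus Treg cells, by 0.59 ± 0.16 (adjusted p = 0.04), and differed by -0.15 ± 0.16 in TFH versus naïve cells (adjusted p = 0.476).

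Of 32 other genes of the Ly6 and uPAR family 16 were tested, and in TFH versus naïve cells 1 rose and 8 fell, with a median of -0.81, beside 20.9% and 25.6% of all genes and a median of -0.07. Ly6m, named 2010109I03Rik in the files, rose and was at 48.8 and 40.3 RU in naïve cells, not well above background there, and at 443 and 571 RU in TFH cells. Lypd6b fell by 5.67 ± 0.16 (adjusted p = 0.000118) and Lynx1, which modulates nicotinic acetylcholine receptors, fell by 2.56 ± 0.19 (adjusted p = 0.000787). Gpihbp1, Ly6k, Lypd2, Lypd5, Plaur and Slurp2 were the other 6 that fell.

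In TFR versus Treg cells 1 of the 16 rose and 6 fell, with a median of -0.57, beside 18.7% and 20.9% of all genes and a median of -0.08. Ly6m rose by 1.05 ± 0.17 (adjusted p = 0.00972). Ly6k fell by 1.78 ± 0.12 (adjusted p = 0.00119) and Lypd6b fell by 2.04 ± 0.16 (adjusted p = 0.00182). Ly6d, Ly6f, Ly6g, Ly6g5b, Ly6g6c, Ly6i and Tex101 passed in neither contrast.

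The interferon-stimulated genes, a list of 63 that holds no Schlafen or Ly6 gene, fell more often than they rose in follicular cells. Of 61 tested, 6 rose and 38 fell in TFH versus naïve cells, with a median of -0.76, and 5 rose and 37 fell in TFR versus Treg cells, with a median of -0.70. Of all genes tested, 20.9% rose and 25.6% fell in the former contrast and 18.7% and 20.9% in the latter, with medians of -0.07 and -0.08. Gbp7, a guanylate-binding protein, fell by 2.65 ± 0.22 in TFH cells (adjusted p = 0.001) and Usp18, which limits interferon receptor signaling, by 1.76 ± 0.25 in TFR cells (adjusted p = 0.00735). Mx1, an antiviral GTPase, rose by 1.46 ± 0.13 in TFH cells (adjusted p = 0.00139), and Ifitm2, a membrane protein restricting viral entry, by 2.59 ± 0.28 in TFR cells (adjusted p = 0.00361).

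TFR cells were above TFH cells for 25 of the 61 interferon-stimulated genes and below for 1, with a median of 0.38, beside 11.6% and 10.5% of all genes and a median of -0.02. Treg cells were above naïve cells for 10 and below for 0, beside 5.89% and 3.98% of all genes. One of the 25 was Bst2, the GPI-anchored protein tetherin, at 15003 and 16372 RU in TFH cells and 38751 and 35194 RU in TFR cells. Bst2 was higher in TFR than in TFH cells by 1.24 ± 0.11 (adjusted p = 0.00311), as were Slfn8 and Slfn3, whose call most alternatives lost. Ly6a and the brighter Ly6c1 probe were lower. The second Ly6c1 probe differed by -0.45 ± 0.33 (adjusted p = 0.371). Of 19 genes of the interferon receptor pathway, 3 rose and 10 fell in TFH cells, with a median of -0.49, and 2 rose and 10 fell in TFR cells, with a median of -0.53, beside the same shares and medians of all genes as for the list of 61. Among them, Ifngr2, a chain of the IFN-γ receptor, fell by 2.35 ± 0.19 in TFH cells (adjusted p = 0.000978) and fell by 1.85 ± 0.19 in TFR cells (adjusted p = 0.00311), while the kinase Jak2 rose by 1.63 ± 0.10 (adjusted p = 0.000483) and 0.64 ± 0.10 (adjusted p = 0.00924).

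**Figure D5:**
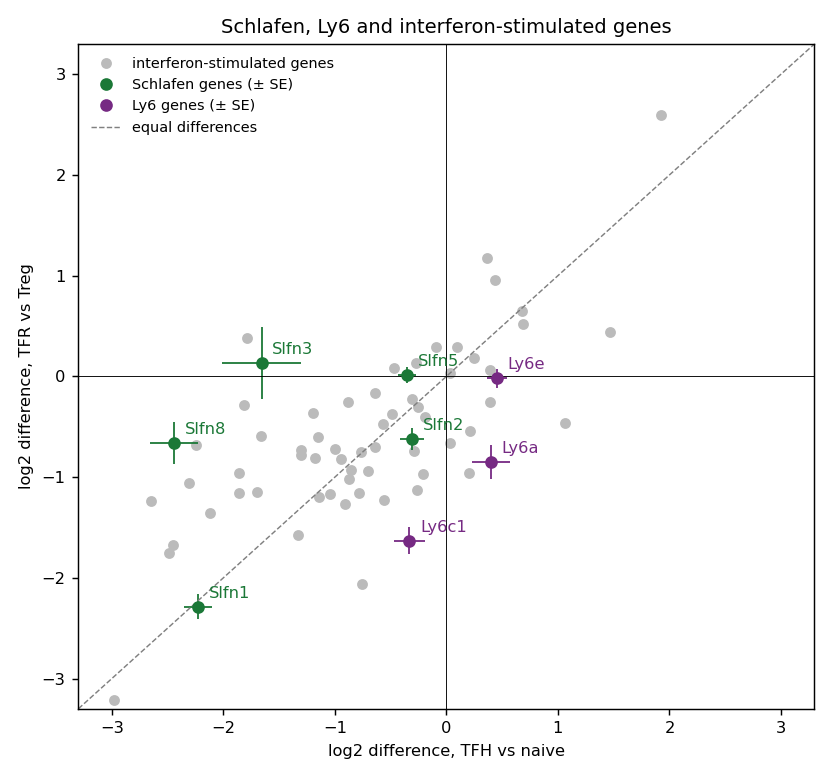
Log2 difference of TFR versus Treg cells (y axis) against that of TFH versus naïve cells (x axis), with 5 Schlafen genes in green, 3 Ly6 genes in purple (± SE) and 61 interferon-stimulated genes in grey. Slfn1 lies near the dashed line of equal differences, Slfn8 lies far above it, and Ly6a and Ly6c1 (brighter probe) lie below it.

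Ly6 genes are also expressed outside the CD4 lineage, and markers of other cells were therefore summed. Of 13 endothelial and stromal markers 9, including Cdh5, Tie1, Pdpn and Lyve1, were not well above background on any array. Their sum was 4763 and 5215 RU in naïve, 3653 and 4101 RU in TFH, 4231 and 4935 RU in Treg, and 2668 and 2567 RU in TFR cells. Among these markers Pecam1, an adhesion molecule that T cells express as well, was lower in TFR cells, at 637 and 866 RU, than in Treg cells, at 2534 and 3484 RU (adjusted p = 0.000755), as were Ly6a and Ly6c1. The collagen genes Col1a1 and Col1a2 were higher in TFR than in Treg cells, by 2.60 ± 0.50 (adjusted p = 0.016) and 1.23 ± 0.31 (adjusted p = 0.0342), and neither was well above background in Treg cells. The CD8 T cell markers Cd8a and Cd8b1 summed to 5118 and 4957 RU in naïve, 2114 and 3174 RU in TFH, 4565 and 4208 RU in Treg, and 2235 and 2110.1 RU in TFR cells, and moved with Slfn1 and the second Ly6c1 probe. The sum of 6 plasmacytoid dendritic cell markers, Bst2 among them, did so too, with 137400 and 119838 RU for naïve, 69599 and 81732 RU for TFH, 123743 and 121119 RU for Treg and 86585 and 87874 RU for TFR cells. Of the 5 tested, 1 rose and 2 fell in both TFH versus naïve and TFR versus Treg cells. Of all genes, 20.9% rose and 25.6% fell in the former and 18.7% and 20.9% in the latter. The marker that rose was Tcf4, by 0.79 ± 0.20 (adjusted p = 0.0298) and 0.94 ± 0.20 (adjusted p = 0.0223). The sum of 11 myeloid markers was 22884 and 18684 RU in Treg and 21137 and 15776 RU in TFR cells. Of the 6 tested, 1 rose and 1 fell in TFR versus Treg cells, with a median of 0.18. Of all genes, 18.7% rose and 20.9% fell in this contrast, with a median of -0.08. The 1 that fell was Ccr2, with a log2 difference of -1.57 ± 0.25 (adjusted p = 0.00933), so that the list did not move in 1 direction. The sum of 5 NK cell markers went the other way. It was 1805 and 1508 RU in naïve, 1938 and 4626 RU in TFH, 694 and 524 RU in Treg, and 1093 and 938 RU in TFR cells. That of 8 antibody-secreting cell markers was 33445 and 22383 RU in naïve and 46951 and 52057 RU in TFH cells. For 8 neutrophil markers it was 2128 and 2267 RU in Treg and 1545 and 1346 RU in TFR cells. The part of all these markers in the results was not tested.

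The genes whose profile over the 8 arrays, centered on its mean, was nearest to that of each gene are given as a description. Slfn1 was nearest to Grap2, Bpifa3 and Tbxa2r, Slfn2 to Psap, Yeats4 and Taf5l, Slfn3 to Crip1, 1700097N02Rik and Gm9888, and Slfn5 to Gm10657, Smg5 and Rabl6. Slfn8 was nearest to an unnamed probe (A_55_P1957353) at a root mean square difference of 0.0883 on the log2 scale, followed by Sesn1 and Pde8a. Ly6a was nearest to 9030619P08Rik, a transcribed pseudogene of chromosome 15, at 0.109, followed by Arl5c and TC1669239. Ly6c1 was nearest to Ccdc64, Mafk and Xpc, and Ly6e to Cd2, Tnip1 and Metap2. The distances are over 8 arrays that also chose the probes, and carry no test.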

How the data were processed

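RNA was amplified in 1 round, labelled and hybridized to one-color Agilent arrays, and the authors extracted the 157716 probe spots per array with Agilent Feature Extraction 10.7.3.1. The deposited files hold background-corrected spot intensities, and a deposited table holds the authors' normalized intensities (geometric mean of a probe's spots, quantile normalization, 75th percentile of 1500, floor of 20). These steps were repeated here on the spots. Flagged spots, spots outside 1.42 times the interquartile range of a probe's 4 spots and spots with a pixel coefficient of variation above 0.5 were excluded, which left 86.45 to 89.18% of the spots, and log2 values were taken. They correlated with the authors' table at r = 0.9994 per array, but the scale differed. Bright probes were higher here, as Ly6c1 in naïve cells at d12 (137750 RU against 104814 RU in that table). Dim ones were lower, as Slfn3 in TFH cells at d25 (43.8 RU against 55 RU). A probe counted as well above background if over 50% of the spots kept had this flag. Differences were fitted with limma 3.58.1 in R 4.3.3 with additive terms for cell type and day over all 8 arrays, with 3 residual and 1.89 prior degrees of freedom, and all genes tested entered the adjustment. The number of arrays limits the precision, and p-values measure the spread between these pools only. The fit was tested on simulated data. A bound for dim probes at the lowest signal well above background (30.3 RU on the d25 TFH array) replaced no Slfn3 value and left its folds unchanged.

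The 9 genes and all lists were chosen with earlier results of these data known. Named genes are the 9, their probes, the other family genes tested, for each list up to 2 called genes in each direction, by size, among those well above background on both sides, and the 3 nearest profiles. Values of Slfn9, Slfn10-ps, Bst2, Psme2b, Ccr2, Col1a1, Col1a2 and Pecam1 beyond that rule, and the run ACTTCCTGG, were chosen after they were seen. Promoter sequences are those of RefSeq (GRCm38.p6), matched by symbol for 7 of the 9 genes, and probe positions are those of the files. The alternatives were another scaling, normexp, the authors' table, no spot exclusion, other filters, floor, probe rules, model terms and thresholds, and leaving out each array.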

Additional observations from a re-analysis of the deposited data

Results flagged for a closer look

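For 3 genes the change on follicular differentiation differed between the Foxp3- and the Foxp3+ lineage by limma's test of the difference itself, (TFR versus Treg) minus (TFH versus naïve). The value was 1.78 for Slfn8 (adjusted p = 0.0333), with 1.97 at d12 and 1.59 at d25. It was -1.25 for Ly6a (adjusted p = 0.0463), with -1.29 and -1.21, and -1.30 for Ly6c1 (adjusted p = 0.0247), with -1.42 and -1.18. With slide as a block the 3 values were the same by design, since each follicular population shared its slides with its progenitor. Their SE were 0.31, 0.27 and 0.21 in place of 0.30, 0.24 and 0.19. All 3 calls were lost with slide as a block or without a filter on dim probes. The Ly6a call was also lost with the authors' table (adjusted p = 0.0522), 75th percentile scaling (adjusted p = 0.0819) and no day term (adjusted p = 0.0958). For Slfn8 it was also lost with the mean of its probes (1.06, adjusted p = 0.119) and no day term (adjusted p = 0.0826). For Ly6c1 it was also lost with 75th percentile scaling (adjusted p = 0.077) and with its second probe (-0.74, adjusted p = 0.391). That of Ly6a was lost without any 1 of the 8 arrays, and those of Slfn8 and Ly6c1 without any 1 of the naïve, Treg and TFR arrays. The direction was the same at both days and under all alternatives run. Those that changed only the model terms, the filter or the threshold could not move the value.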

How the results depend on the processing

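Of the 17 calls, 4 held under all alternatives run for them (20 for Slfn1 and Slfn8 and 21 for Ly6c1) and 0 changed direction. The order of the cell types was kept for 3 of 8 genes (Slfn1, Slfn5 and Ly6e) under 75th percentile scaling without quantile normalization. With an absolute log2 difference of at least 1, 3 genes were called in TFH versus naïve, 2 in TFR versus Treg and 0 in Treg versus naïve cells. Without a filter on dim probes 2 were called in TFR versus TFH and 0 in Treg versus naïve cells and between the lineages, and the same counts were found with slide as a block. With 75th percentile scaling 0 were called in Treg versus naïve cells and 1 between the lineages. Day served as the replicate block, and without it 1 gene was called between the lineages. Leaving out 1 array gave 2 to 5 genes in TFH versus naïve, 0 to 3 in TFR versus TFH, 2 to 5 in TFR versus Treg, 0 to 1 in Treg versus naïve cells and 0 to 2 between the lineages. The lone array of a cell type is then assumed to vary like the others. Second probes of Slfn5 and Slfn8 gave no value.

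Values that changed sign were uncalled. With 75th percentile scaling Treg versus naïve cells were at -0.035 for Ly6a, -0.011 for Ly6c1, -0.081 for Slfn2 and -0.034 for Slfn8, and d25 versus d12 at -0.14 for Ly6e and -0.15 for Slfn2. With the mean of probes Ly6c1 was at 0.14 for d25 versus d12 (0.42 with its second probe), and Slfn5 at -0.25 for TFR versus Treg, 0.18 for Treg versus naïve and -0.077 between the lineages. With slide as a block Slfn2 was at -0.044 for Treg versus naïve cells. Leaving out 1 array, Treg versus naïve cells ranged from -0.067 to 0.28 for Ly6a, -0.0023 to 0.15 for Slfn2, -0.57 to 0.18 for Slfn3 and -0.17 to 0.21 for Slfn8, TFR versus Treg cells from -0.10 to 0.060 for Ly6e, -0.34 to 0.60 for Slfn3 and -0.0081 to 0.043 for Slfn5, the lineages from -0.23 to 0.10 for Slfn1, and the days from -0.0094 to 0.092 for Slfn2.

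Over all genes tested, a log2 difference of at least 1 left 3267 of 7332 calls in TFH versus naïve, 2528 of 6249 in TFR versus Treg, 1692 of 3486 in TFR versus TFH and 936 of 1557 in Treg versus naïve cells. Without a filter these were 3870 in TFR versus Treg, 1649 in TFR versus TFH, 702 in Treg versus naïve cells and 418 of 1339 between the lineages, with slide as a block 1349, 523 and 691 in the last 3, and without the day block 2213, 1000 and 807. For d25 versus d12 the count of 11 ranged from 0 to 1095.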

Other observations

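Of 13 tested genes for GPI-anchored T cell proteins other than Ly6, 7 rose and 4 fell in TFH versus naïve cells, with a median of 0.45, and 4 rose and 5 fell in TFR versus Treg cells, with a median of -0.26. Of all genes tested, 20.9% rose and 25.6% fell in the former contrast, with a median of -0.07, and 18.7% rose and 20.9% fell in the latter, with a median of -0.08, as holds for each list that follows. Cd160, a receptor for HVEM, rose by 4.04 ± 0.24 in TFH cells (adjusted p = 0.00045) and 2.69 ± 0.24 in TFR cells (adjusted p = 0.00231), and Nt5e (CD73) by 3.70 ± 0.22 (adjusted p = 0.000452) and 1.44 ± 0.22 (adjusted p = 0.00877). The complement regulator Cd55 fell by 4.34 ± 0.48 in TFH cells (adjusted p = 0.00253) and fell by 3.02 ± 0.48 in TFR cells (adjusted p = 0.00979), and Art4 fell by 4.74 ± 0.38 (adjusted p = 0.000943) and fell by 4.55 ± 0.38 (adjusted p = 0.00194). Of 24 genes for GPI anchor synthesis, 3 rose and 4 fell in TFH cells and 1 rose and 6 fell in TFR cells, with medians of -0.07 and 0.04. These shares, 12.5% and 16.7% in TFH and 4.17% and 25% in TFR cells, were below those of all genes except for the genes that fell in TFR cells. Pigm, a mannosyltransferase, fell by 0.72 ± 0.12 (adjusted p = 0.0083) and fell by 0.70 ± 0.12 (adjusted p = 0.0117).

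Of 22 genes linked to lymphocyte quiescence, 2 rose and 12 fell in TFH versus naïve cells, with a median of -0.45, and 1 rose and 12 fell in TFR versus Treg cells, with a median of -0.68. The chemokine receptor Ccr7 fell by 4.81 ± 0.20 (adjusted p = 0.000212) and Il7r fell by 4.73 ± 0.29 (adjusted p = 0.000501) in TFH cells, and the egress receptor S1pr1 fell by 3.20 ± 0.18 (adjusted p = 0.000838) in TFR cells.

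Ly6d, a surface protein of B cell progenitors and plasmacytoid dendritic cells, had 152 RU (d12) and 3525 RU (d25) for TFH and 80.8 and 411 RU for TFR cells. Its difference of d25 and d12 was 1.86 ± 0.80 (adjusted p = 0.201), and it passed in neither TFH versus naïve nor TFR versus Treg cells. The summed level of 9 B cell markers was 7738 and 16844 RU in TFH cells and 7813 and 8818 RU in TFR cells on these days. The sort took B220- cells. Their part in the Ly6d values was not tested.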
